A study of Mus musculus with 9 samples.

Results

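Fibroblast growth factors (FGFs) were examined as a family of 10 genes, chosen by name: Fgf1, Fgf2, Fgf6, Fgf7, Fgf9, Fgf10, Fgf13, Fgf16, Fgf18 and Fgf21. They were 10 of the 24537 gene names in a transcript table of sham heart and sham quadriceps, where they filled 13 of 35745 rows. Only Fgf1, Fgf7 and Fgf9 were among the 587 genes of a second table, which held genes for secreted proteins in quadriceps after sham surgery or transverse aortic constriction (TAC). The other 7 members were not analysed after TAC.

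All animals were wild-type male mice, C57Bl6 in the series' description and C57Bl/6JCrl in the study's methods, 8 weeks old at surgery by the series' own description, and were sampled 12 weeks later. TAC narrows the aorta with a ligature, overloads the left ventricle and leads to heart failure with wasting of skeletal muscle, while sham mice had the operation without the ligature. RNA sequencing covered 3 libraries each of sham heart, sham quadriceps and TAC quadriceps. No TAC heart was analysed here, and the labels do not say which part of the heart was taken. The study counted the libraries of a group as biological replicates, but the labels do not tie them to single animals, so p-values measure the spread between these libraries. The design puts 2 questions to the family: which FGFs differ between healthy skeletal muscle and heart, and which secreted FGFs change in muscle that wastes after TAC.

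FGFs are ligands of receptor tyrosine kinases, the FGF receptors. The paracrine members bind heparan sulfate chains at the cell surface, which hold them near their source and help them engage a receptor. Fgf21 is a hormone that binds heparan sulfate weakly and needs the co-receptor beta-Klotho, and Fgf13 belongs to a branch that stays inside the cell and binds voltage-gated sodium channels. In the heart, FGFs are known for roles in growth of the ventricular wall, vessel formation and hypertrophy, and in skeletal muscle for control of satellite cells, the muscle stem cells.

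Library totals ran from 23383452 counts in sham quadriceps library 3 to 48999600 in TAC quadriceps library 2. In sham heart and sham quadriceps they equal the counts summed over all transcript rows. Isoform rows of a gene can share reads, so these totals are not numbers of mapped reads. TAC libraries 1 and 2 were deeper than each sham library of either tissue, and for the TAC library numbered 4 only the counts of the listed genes were used. The tissue labels were checked on marker genes, as sums of CPM (counts per 1000000 counts of the library total). The 6 cardiac myocyte genes summed to 36700 to 39300 CPM in sham heart and 5.82 to 8.27 CPM in sham quadriceps, and the 6 skeletal fibre genes to 1490 to 1740 and 54300 to 72100 CPM. These are bulk tissues, in which fewer cells of a type and less RNA per cell cannot be told apart.

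Among the 10 FGFs, 5 were lower in sham quadriceps than in sham heart (Fgf16, Fgf18, Fgf1, Fgf9 and Fgf13) and Fgf7 alone was higher. Fgf2, Fgf6 and Fgf10 did not pass the test, and Fgf21 had too few counts to be tested. A gene was called at an adjusted p under 0.05 in edgeR's quasi-likelihood test, with the Benjamini-Hochberg method applied across the 24280 transcripts tested, and was represented by its transcript with the most counts. Among all 14906 genes tested, 33.9% were called lower and 32.1% higher in quadriceps. The 6 called FGFs also had groups of libraries that did not overlap, which held for 71.7% of all genes. With the study's own rule between the tissues (an unadjusted p under 0.05 and a log2 fold change beyond 2), which 9.04% of genes met as lower and 7.14% as higher, 3 members were lower (Fgf16, Fgf18 and Fgf1) and 0 were higher. The median log2 fold change of the 9 tested members was -0.57, beside -0.05 over all genes. Fgf16 passed the count filter only through its heart libraries, where it is high. The counts of lower and of non-overlapping members and the median therefore rest partly on how it entered.

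The size of each difference depended on the scaling. With TMM factors, which centre the bulk of the genes between libraries, the median log2 fold change over the tested transcripts was -0.06, and with plain library totals it was -0.81. With library totals, 62% of all genes were called lower in quadriceps and 13.6% higher. Under both scalings the members called were the same, 5 lower and 1 higher, while the uncalled Fgf2 and Fgf10 changed sign. Fold changes below use TMM factors unless library totals are named. RPKM values (counts per kilobase of transcript and per 1000000 counts of the library total) are on library totals.

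**Figure D1:**
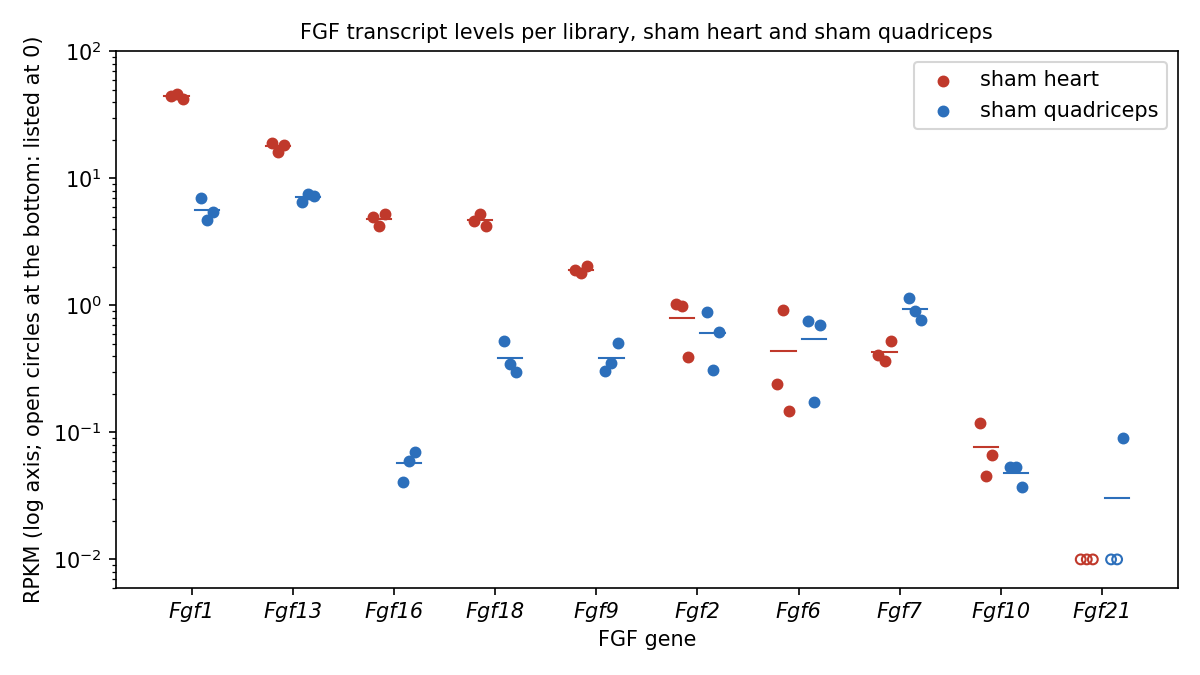
RPKM of the 10 FGF genes (log axis) in each of 3 sham heart and 3 sham quadriceps libraries, with group means as short lines and open circles for libraries listed at 0. Fgf1 and Fgf13 stood above the other members in both tissues, and Fgf16 differed most, with 4.23 to 5.24 in sham heart and 0.0404 to 0.0705 in sham quadriceps.

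Per transcript length, Fgf1 was the highest FGF in sham heart with 44.3 ± 1.71 RPKM (SD, n = 3). Fgf13 came next at 17.9 ± 1.59 RPKM. Fgf16 at 4.80 ± 0.519 and Fgf18 at 4.69 ± 0.501 RPKM overlapped each other, and Fgf9 followed at 1.92 ± 0.122 RPKM. The library ranges of neighbours in this order did not overlap down to Fgf9, apart from Fgf16 and Fgf18. Fgf2, Fgf6 and Fgf7, at mean RPKM of 0.799, 0.434 and 0.429, overlapped their neighbours. Fgf10 averaged 0.0766 RPKM and Fgf21 was listed at 0.

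In sham quadriceps the order was different. Fgf13 (7.14 ± 0.514 RPKM) and Fgf1 (5.69 ± 1.17 RPKM) led the family and overlapped. Fgf7 was the third at 0.936 ± 0.188 RPKM, overlapping Fgf2 at 0.605 RPKM, and the next members, Fgf6, Fgf18 and Fgf9, averaged 0.540, 0.389 and 0.388 RPKM. Fgf16, Fgf10 and Fgf21 lay lowest, at means of 0.0569, 0.0481 and 0.0303 RPKM. Summed over the 10 genes, FGF transcripts made up 245 to 254 CPM of the sham heart libraries and 42.3 to 50.6 CPM of the sham quadriceps libraries.

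The paracrine ligand Fgf16, which is produced by cardiac myocytes and takes part in heart growth, showed the largest difference between the tissues. It lies at chrX:105764279-105774939 on the plus strand (GRCm38, GENCODE annotation, 3 exons) and was counted as NM_030614. The sham heart libraries held 556, 493 and 526 Fgf16 counts, and the sham quadriceps libraries 4, 6 and 5. All heart libraries were high and all quadriceps libraries near the limit of detection, with no overlap, and the gene passed the count filter through its heart libraries. Fgf16 was 50.6-fold lower in quadriceps (log2 fold change -5.66 ± 0.22 SE, adjusted p = 4.14e-08, edgeR), and the summed counts gave a heart to quadriceps ratio of 86.1 on library totals (95% Clopper-Pearson interval 52.1 to 154, counting error only). On library totals the fitted log2 fold change was -6.40.

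Fgf9, the closest relative of Fgf16 among the members and a mitogen for fetal cardiac myocytes, could share reads with it where the sequences are alike. A stretch of 90 coding bases that lies across the junction of exons 1 and 2 in both genes is shown because it is where their coding sequences resemble each other. In Fgf9 it is bases 223 to 312 of a 627-base coding sequence and runs from position 58073278 to 58083235 on chromosome 14, and in Fgf16 it is bases 220 to 309 of 624 and runs from 105764760 to 105772552 on the X chromosome (plus strand, GRCm38, GENCODE transcripts, intron included in both spans). Capitals mark the bases that differ.
Fgf9: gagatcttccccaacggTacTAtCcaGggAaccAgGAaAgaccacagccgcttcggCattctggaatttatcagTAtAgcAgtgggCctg
Fgf16: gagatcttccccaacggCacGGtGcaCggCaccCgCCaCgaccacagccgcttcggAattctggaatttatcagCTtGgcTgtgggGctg
In this stretch 74 bases were identical and 16 differed. Over 606 aligned coding bases 70.8% were identical, with a longest identical run of 17 bases, shorter than the 50 sequenced cycles. No 50-base word of the GENCODE transcripts of Fgf9 (1593 bases) or Fgf16 (1645 bases) occurred in another gene, but the counted models were longer, at 4134 and 3035 bases, and their remaining sequence was not searched.

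Fgf9 (chr14:58070547-58112720, plus strand, NM_013518) had 290, 287 and 280 counts in sham heart and 41, 48 and 49 in sham quadriceps. Each heart library lay far above each quadriceps library. The gene was 2.98-fold lower in quadriceps (log2 fold change -1.57 ± 0.20 SE, adjusted p = 8.87e-05, edgeR), and 5.02-fold lower on library totals. In sham heart its RPKM was below that of Fgf16, and in sham quadriceps it was above it.

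Fgf18, a paracrine ligand known for roles in cartilage and lung, lies at chr11:33117430-33147400 on the minus strand. Its leading row, the non-coding transcript NR_102395, had 273, 316 and 220 counts in sham heart and 27, 18 and 11 in sham quadriceps. The coding transcript NM_008005 carried almost the same counts in heart, 273, 314 and 218, so the rows share their reads and are not separate evidence. Heart and quadriceps did not overlap. Fgf18 was 7.06-fold lower in quadriceps (log2 fold change -2.82 ± 0.20 SE, adjusted p = 1.73e-06, edgeR), and 11.8-fold lower on library totals.

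Fgf1 binds all FGF receptors and lacks a classical signal peptide. It is encoded on the minus strand of chromosome 18 and was counted as NM_010197. Sham heart libraries held 6434, 6882 and 5487 Fgf1 counts, and sham quadriceps libraries 889, 604 and 494. The heart counts were the highest of any member and lay above those of all quadriceps libraries. Fgf1 was 4.65-fold lower in quadriceps (log2 fold change -2.22 ± 0.12 SE, adjusted p = 3.23e-07, edgeR), and 7.78-fold lower on library totals.

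Fgf13, the intracellular sodium channel partner, lies at chrX:59062145-59568071 on the minus strand and had 3 transcripts in the table. The leading one, NM_001290414, had 1761, 1537 and 1526 counts in sham heart and 534, 620 and 427 in sham quadriceps. Heart was higher in every library, but the difference was the smallest of those called. It was 1.48-fold lower in quadriceps (log2 fold change -0.57 ± 0.13 SE, adjusted p = 0.00378, edgeR), and 2.50-fold lower on library totals. The other transcripts, NM_001290415 and NM_010200, both gave a log2 fold change of -0.52.

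In GENCODE the Fgf13 transcripts start at different first exons and share their last 3 exons. The lengths in the table (2494, 2007 and 2491 bases) differ from those of the GENCODE models, so the counted exons may differ from these. The counts of NM_010200 and NM_001290415 differed by at most 3 in any library, and the transcripts could not be told apart by these counts. NM_001290414 carried an excess over NM_001290415 of 26.0%, 27.1% and 23.7% of its own counts in sham heart and 21.2%, 23.1% and 24.4% in sham quadriceps. These shares overlapped between the tissues (25.6% ± 1.73 against 22.9% ± 1.61, SD, n = 3). A two-sided exact permutation test of 3 against 3 libraries gave p = 0.2 and cannot go below 0.1, so it could not show whether the shares differed.

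Fgf7, or keratinocyte growth factor, is made by mesenchymal cells and signals to epithelial cells, and it was the member that was higher in muscle. It lies at chr2:126034658-126091185 on the plus strand and was counted as NM_008008. The sham heart libraries had 0.405, 0.362 and 0.521 RPKM from 40, 37 and 46 counts. The sham quadriceps libraries had 1.14, 0.898 and 0.770 RPKM from 99, 79 and 48 counts. On the RPKM scale every quadriceps library lay above every heart library. Fgf7 was 3.68-fold higher in quadriceps (log2 fold change 1.88 ± 0.21 SE, adjusted p = 3.68e-05, edgeR), and 2.20-fold higher on library totals (adjusted p = 0.00187).

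Marker genes of other cell types differed between the tissues as well. The 6 fibroblast genes summed to 785 to 886 CPM in sham heart and 306 to 501 CPM in sham quadriceps. With TMM factors 3 of these 6 were called lower in quadriceps, beside 33.9% of all genes. The 6 endothelial genes summed to 613 to 670 and 103 to 133 CPM, the 5 macrophage genes to 68.9 to 69.4 and 14.1 to 24.5 CPM, and the 4 smooth muscle and pericyte genes to 518 to 565 and 208 to 343 CPM. With TMM factors 6 of the endothelial, 4 of the macrophage and 2 of the smooth muscle and pericyte genes were called lower. The 5 adipocyte genes summed to 0.544 to 1.97 CPM in sham heart and to 95.5, 36.4 and 10.8 CPM in sham quadriceps libraries 1, 2 and 3. Fgf7 RPKM was also highest in library 1 and lowest in library 3. Satellite cell genes (4) summed to 0.0782 to 0.151 CPM in heart, with 3 of them at 0 in all heart libraries, and to 1.97 to 2.27 CPM in quadriceps. Of the 4 Schwann cell genes 2 were called higher with TMM factors, beside 32.1% of all genes, and 2 were not called. Their log2 fold changes ran from -0.969 to 7.579. They summed to 4.59 to 5.99 CPM in heart. In sham quadriceps libraries 1, 2 and 3 they summed to 21.7, 19.8 and 19.4 CPM, the same order as the adipocyte sums and Fgf7 RPKM. Other sums had a different order. Fibroblast genes summed to 501, 306 and 352 CPM in these libraries. Endothelial, macrophage, smooth muscle and pericyte, and satellite cell sums were likewise lowest in library 2. The part of these cell types in the FGF differences was not tested. With any single library left out, the log2 fold change of Fgf7 was 1.76 to 2.04.

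Promoters of Fgf7 and Fgf18 are shown because their transcripts differed in opposite directions between the tissues. Each is the 250 bases before the annotated start, from RefSeq on GRCm38.p6, written 5′ to 3′ on the gene's strand. The Fgf7 promoter is chr2:126034408-126034657 (plus strand) and that of Fgf18 is chr11:33147401-33147650 (minus strand). Capitals mark the E-box, written CANNTG, where N is any base, and the GC-box, written GGGCGG, both searched on either strand.
Fgf7: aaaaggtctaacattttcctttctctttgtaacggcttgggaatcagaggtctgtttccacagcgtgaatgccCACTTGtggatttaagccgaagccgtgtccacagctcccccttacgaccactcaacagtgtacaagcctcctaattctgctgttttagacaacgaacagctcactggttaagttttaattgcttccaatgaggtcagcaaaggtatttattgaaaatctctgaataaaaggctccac
Fgf18: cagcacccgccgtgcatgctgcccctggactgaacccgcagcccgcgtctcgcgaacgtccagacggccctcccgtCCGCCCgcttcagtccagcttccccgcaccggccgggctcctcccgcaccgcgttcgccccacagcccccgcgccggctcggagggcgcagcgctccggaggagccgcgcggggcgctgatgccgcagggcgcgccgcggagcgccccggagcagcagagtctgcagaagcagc
The Fgf7 promoter held 1 E-box and no GC-box, with 43.6% of its bases G or C, and the Fgf18 promoter held 1 GC-box and no E-box, with 77.2% of its bases G or C. Of 32851 promoters of this length, 66.2% held an E-box and 32.7% a GC-box, and the median share of G or C was 52.4%. The promoter of Fgf9, also lower in quadriceps, held neither motif and had 44.8% of its bases G or C. Promoter entries of Fgf13, lower as well, ran from 40.4% to 74.8%. A match to letters is a description and not evidence of binding. Promoter entries matched 8 of the 10 members, the exceptions being Fgf16 and Fgf1.

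**Figure D2:**
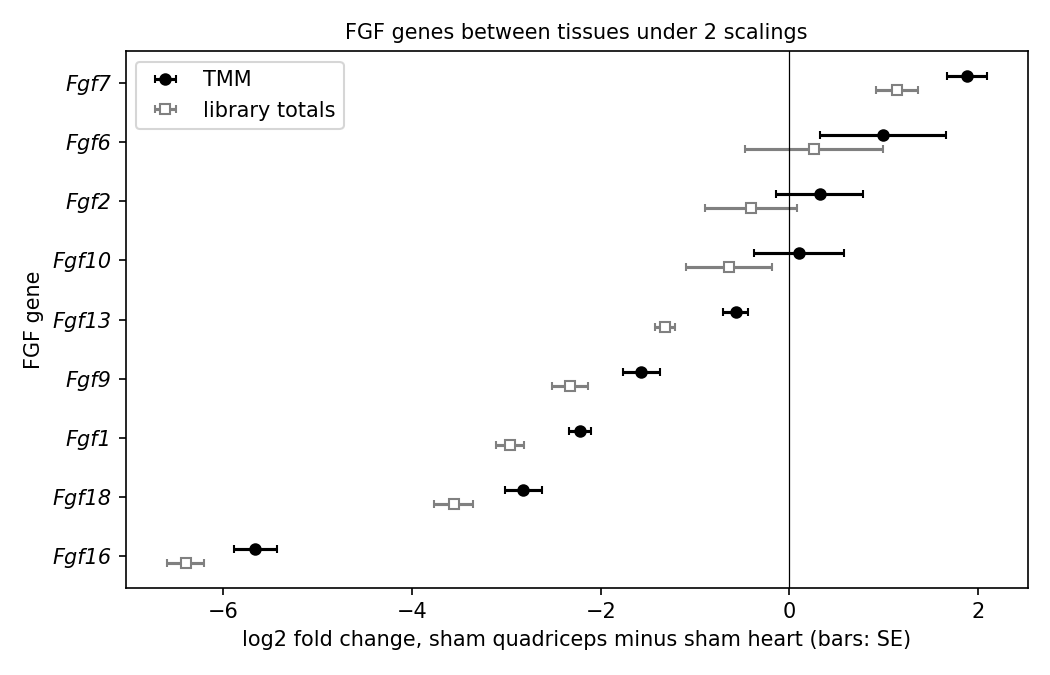
Log2 fold change of the 9 tested FGF genes, sham quadriceps minus sham heart, with TMM factors (black circles) and with library totals (grey squares), and bars for the SE. Fgf16, Fgf18, Fgf1, Fgf9 and Fgf13 lay below 0 and Fgf7 above 0 under both scalings, while Fgf2 and Fgf10 changed sides.

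Fgf2, Fgf6 and Fgf10 were low in both tissues. Fgf6, a ligand of the myogenic lineage, had 11, 43 and 6 counts in sham heart and 30, 7 and 20 in sham quadriceps. The groups overlapped, with heart library 2 above every quadriceps library in counts. The log2 fold change was 0.99 ± 0.67 SE (adjusted p = 0.214, edgeR), and without heart library 2 it was 2.13 and passed the test (adjusted p = 0.0163, edgeR). With that library left out, 2 members were higher in quadriceps.

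Fgf2, or basic FGF, a mitogen for fibroblasts and endothelial cells, had 26, 26 and 9 counts in sham heart and 20, 7 and 10 in sham quadriceps. The values overlapped, with a log2 fold change of 0.32 ± 0.46 SE (adjusted p = 0.556, edgeR) that turned to -0.41 on library totals. Its GENCODE exons overlap those of Nudt6 on the opposite strand and of Gm43439 on the same strand, and 12.7% of the 50-base words of its GENCODE transcripts (5973 bases) also occurred in other genes. The counted model has 690 bases, and whether these stretches lie within it was not tested. The strand setting of the counting is not given in the sources used here.

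Fgf10, the mesenchymal ligand required for limb and lung outgrowth, had 20, 8 and 10 counts in sham heart and 8, 8 and 4 in sham quadriceps. The groups overlapped, with a log2 fold change of 0.10 ± 0.47 SE (adjusted p = 0.863, edgeR) and -0.64 on library totals. It overlaps the antisense gene Gm16263 in its exons. Fgf21, the endocrine member known as a stress-induced myokine, was at 0 in 5 of the 6 libraries and had 2 counts in sham quadriceps library 3. A count of 0 allows up to 3 counts, or 0.0782 to 0.128 CPM depending on the library. Fgf21 was thus not detected in healthy heart and lay near the limit of detection in healthy muscle at this depth.

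Of the other 12 FGF ligands, 4 could be tested. Counting Fgf21, 9 of 22 ligands had no more than 3 counts in any library, and Fgf3, Fgf8 and Fgf15 were at 0 throughout. Fgf11 and Fgf12, intracellular relatives of Fgf13, were called with TMM factors, 1 higher and 1 lower, beside 32.1% and 33.9% of all genes. On library totals 0 were higher and 2 lower (Fgf12 and Fgf14, the latter at -1.22, adjusted p = 0.0366, edgeR, and named after its values were seen). Of all genes 13.6% were called higher and 62% lower on library totals. Fgf11 had 49, 58 and 48 counts in sham heart and 147, 52 and 46 in sham quadriceps, of which library 1 stood apart. It was higher in quadriceps (log2 fold change 1.64 ± 0.33 SE, adjusted p = 0.00159, edgeR), and the call was lost on library totals (0.92, adjusted p = 0.0555).

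Fgf12 had 214, 26 and 18 counts in sham heart and 2, 2 and 0 in sham quadriceps. All heart libraries were higher, but library 1 held most of the counts. The fitted log2 fold change was -4.89 ± 1.46 SE (adjusted p = 0.0133, edgeR). The summed counts gave a heart to quadriceps ratio of 52.9 (95% Clopper-Pearson interval 20.4 to 196, counting error only, without the spread between libraries). Fgf12 passed the count filter only through its heart libraries, so the count of lower ligands rests partly on how it entered. Myl7, the atrial myosin light chain among the cardiac markers, had 2075, 164 and 3 counts in the same heart libraries, with library 1 highest and library 3 lowest for both genes. Its relation to Fgf12 was not tested.

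Of 6 tested receptors and co-receptors, 4 were higher in sham quadriceps and 1 was lower, with a median log2 fold change of 1.05. Of all genes 32.1% were called higher and 33.9% lower. On library totals the counts were 3 higher and 2 lower, beside 13.6% and 62% of all genes, and the median was 0.30. Fgfr1, the main FGF receptor of mesenchymal tissue, had 4.36 ± 0.186 RPKM in sham heart and 7.14 ± 0.655 RPKM in sham quadriceps (SD, n = 3). It was the most abundant of the list in quadriceps, while in heart it overlapped Fgfrl1 at 4.13 ± 0.165 RPKM. Its quadriceps libraries held 1068, 1294 and 826 counts beside 848, 821 and 701 for heart, a log2 fold change of 1.47 ± 0.13 SE (adjusted p = 8.19e-06, edgeR) that was 0.71 on library totals.

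Fgfr4, a receptor of myogenic progenitors, had 0, 3 and 2 counts in sham heart and 26, 30 and 12 in sham quadriceps. It was higher in each quadriceps library (adjusted p = 7.12e-05, edgeR), with a ratio of summed counts of 16.6 (95% Clopper-Pearson interval 6.77 to 52.7, counting error only). Kl, which encodes the co-receptor alpha-Klotho, had 1, 0 and 0 counts against 7, 7 and 4 (adjusted p = 0.000648, edgeR). The ratio of summed counts was 21.9 (interval 3.47 to 914, counting error only). Both genes were barely detected in heart and passed the count filter only through their quadriceps libraries, where they are high. Both are among the 4 receptors and co-receptors called higher, so that count and the median rest partly on how they entered.

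Fgfr3 was the receptor that was lower in quadriceps, with 148, 142 and 123 counts in sham heart and 55, 47 and 29 in sham quadriceps (log2 fold change -0.63, adjusted p = 0.0062, edgeR). Fgfrl1, a receptor without a kinase domain, was called higher with TMM factors (0.63, adjusted p = 0.00158, edgeR), but turned to -0.12 and was not called on library totals. Fgfr2, the receptor of Fgf7 and Fgf10 in epithelia, had 9, 2 and 3 counts in quadriceps beside 16, 25 and 15 in heart. Its log2 fold change of -0.96 did not pass the test with TMM factors (adjusted p = 0.103, edgeR) and did so on library totals (-1.69, adjusted p = 0.0139, edgeR). Klb, the co-receptor of Fgf21, had 1, 3 and 1 counts against 14, 4 and 1 and was not tested.

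Among 14 genes that bind FGFs or build, carry and edit heparan sulfate, 4 were higher and 9 lower in quadriceps, with a median log2 fold change of -0.87. Of all genes 32.1% were called higher and 33.9% lower. On library totals 1 of the 14 was higher and 10 were lower, where 13.6% of all genes were called higher and 62% lower. Fgfbp1, a secreted protein that releases FGFs from the matrix, had 1, 0 and 0 counts in sham heart and 216, 88 and 45 in sham quadriceps. It was higher in every quadriceps library (adjusted p = 8.36e-06, edgeR), with a ratio of summed counts of 426 (interval 75.9 to 16900, counting error only). Fgfbp1 passed the count filter only through its quadriceps libraries, so the count of higher genes and the median rest partly on how it entered. Like the adipocyte and Schwann cell gene sums, it was highest in library 1 and lowest in library 3. The fibroblast, endothelial, smooth muscle and pericyte, and satellite cell sums were also highest in library 1, but lowest in library 2. The relation of Fgfbp1 to these cell types was not tested. Sulf2, an extracellular sulfatase of heparan sulfate, was lower, with 90, 53 and 64 counts in quadriceps beside 2136, 2049 and 1944 in heart (log2 fold change -3.85 ± 0.17 SE, adjusted p = 8.4e-08, edgeR). The glypican Gpc6 (-2.45) and the basement membrane proteoglycan Hspg2, or perlecan (-2.08), were lower as well.

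Of 13 receptor adaptors, feedback inhibitors and target genes of FGF signalling, 2 were higher and 7 lower in quadriceps, and the median log2 fold change was -0.45. On library totals none was higher and 11 were lower, beside 13.6% of all genes higher and 62% lower. With TMM factors the shares of all genes were 32.1% and 33.9%. Spred2, an inhibitor of the Ras to ERK pathway, had 507, 550 and 410 counts in sham heart and 49, 59 and 62 in sham quadriceps (log2 fold change -2.04 ± 0.20 SE, adjusted p = 1.73e-05, edgeR). The feedback inhibitor Spry4 (-1.13) and the transcription factor Etv1 (-1.42) were also lower. Etv4, a related transcription factor, was higher (1.77, adjusted p = 0.0107, edgeR) from 19, 10 and 4 counts in quadriceps beside 4, 9 and 6 in heart, and was not called on library totals (1.04, adjusted p = 0.104, edgeR).

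**Figure D3:**
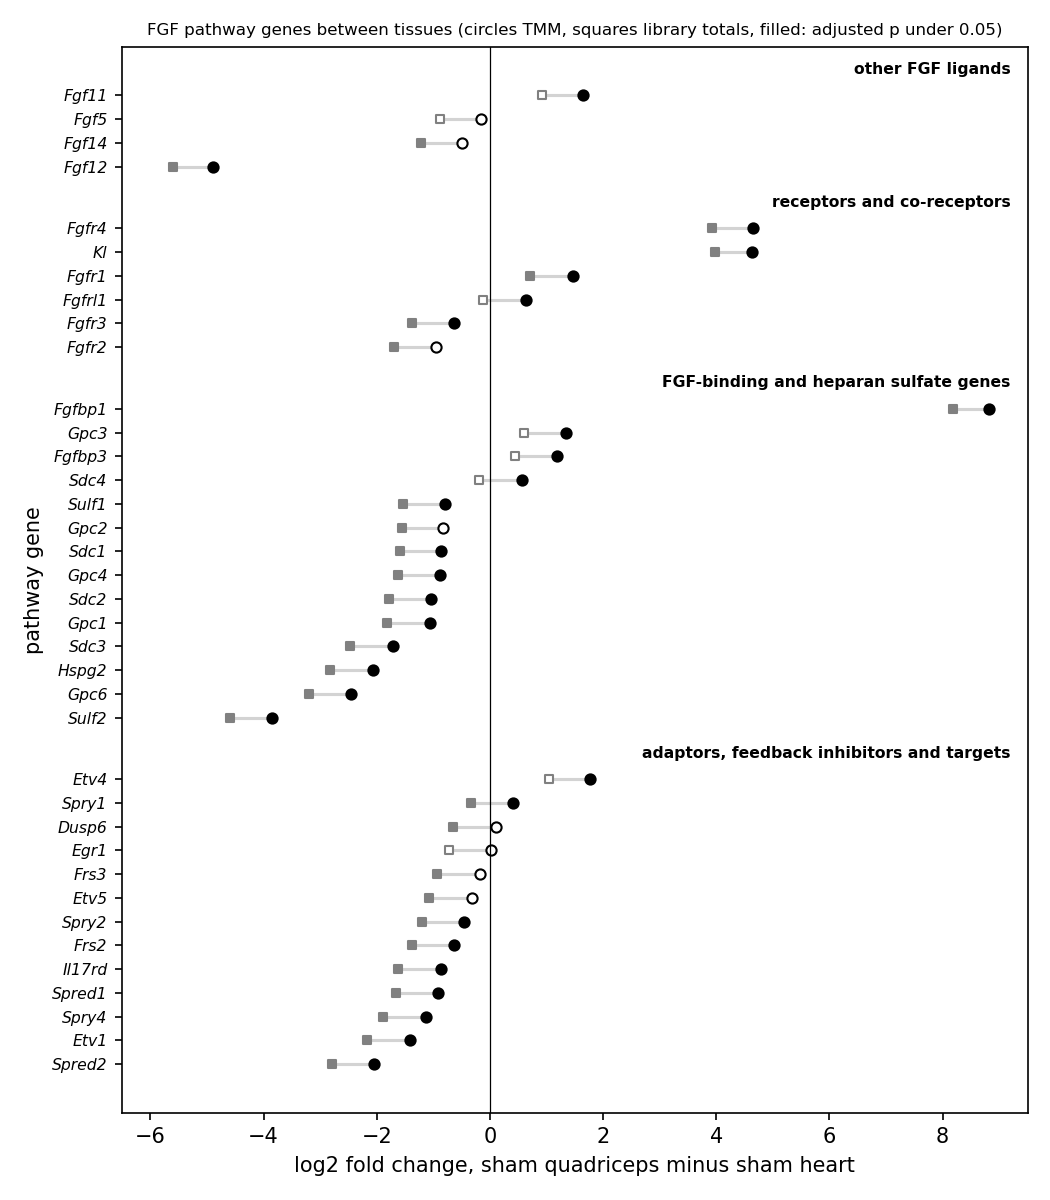
Log2 fold change of the tested FGF pathway genes, sham quadriceps minus sham heart, grouped by role, with circles for TMM factors, squares for library totals and filled symbols for an adjusted p under 0.05. Of 6 receptors and co-receptors 4 were called higher with TMM factors and 3 with library totals, whereas 9 of 14 heparan sulfate and FGF-binding genes were called lower with TMM factors and 10 with library totals.

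After TAC, none of the 3 listed FGFs passed the test in quadriceps (0 higher and 0 lower). Among all 586 genes tested there, 17.7% were called higher and 11.9% lower, and 249 had an unadjusted p under 0.05. The adjusted p-values of the members ran from 0.689 to 0.976 in edgeR's quasi-likelihood test, with the Benjamini-Hochberg method applied across the listed genes. None of the members had an unadjusted p under 0.05 in that test, and DESeq2, limma and the other alternatives also called 0 of the 3. The sham and TAC libraries overlapped for each member, whereas they did not overlap for 47.3% of all tested genes. The sham quadriceps libraries are the same as in the comparison with heart.

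Levels in all 6 quadriceps libraries are given as CPM of the listed genes, scaled with TMM factors (listed CPM), since the library total behind the TAC library numbered 4 was not used. Fgf1 had 686, 579 and 644 listed CPM in the sham libraries, from 889, 604 and 494 counts. In TAC libraries 1, 2 and 4 it had 531, 847 and 267 listed CPM, from 578, 912 and 281 counts. TAC library 2 was the highest of the 6 and library 4 the lowest, with the sham libraries between them. The log2 fold change was -0.21 ± 0.38 SE (adjusted p = 0.689, edgeR), but 0.01 without TAC library 4 and -0.67 without TAC library 2. On library totals, with TAC libraries 1 and 2 only, it was -0.54 ± 0.30 SE (adjusted p = 0.174, edgeR), from 3.05 and 4.77 RPKM beside 6.98, 4.69 and 5.41 RPKM in sham.

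Fgf7 had 76.4, 75.7 and 62.6 listed CPM in sham and 70.8, 63.1 and 99.8 in TAC quadriceps, from 99, 79 and 48 against 77, 68 and 105 counts. TAC library 4 was the highest of all, and the other TAC libraries lay within the sham range. The log2 fold change was 0.12 ± 0.26 SE (adjusted p = 0.765, edgeR) and turned to -0.19 without TAC library 4. On library totals, again with TAC libraries 1 and 2 only, it was -0.75 ± 0.31 SE and did not pass the test (adjusted p = 0.0896, edgeR), although both TAC values, 0.594 and 0.521 RPKM, were under the lowest sham value of 0.770 RPKM. Its unadjusted p in this fit was 0.0424 (edgeR), and 291 of the 586 genes tested had one under 0.05. On these 5 libraries the direction was the same under both scalings.

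Fgf9 had 31.6, 46.0 and 63.9 listed CPM in sham and 42.3, 57.6 and 41.8 in TAC quadriceps, from 41, 48 and 49 against 46, 62 and 44 counts. All TAC libraries lay within the sham range. The log2 fold change was 0.02 ± 0.33 SE (adjusted p = 0.976, edgeR) and -0.52 ± 0.37 SE on library totals with TAC libraries 1 and 2 only (adjusted p = 0.282, edgeR). Over all listed genes the median log2 fold change of these 5 libraries was -0.08 with TMM factors and -0.63 on library totals, where 3.41% of genes were called higher and 30.7% lower.

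**Figure D4:**
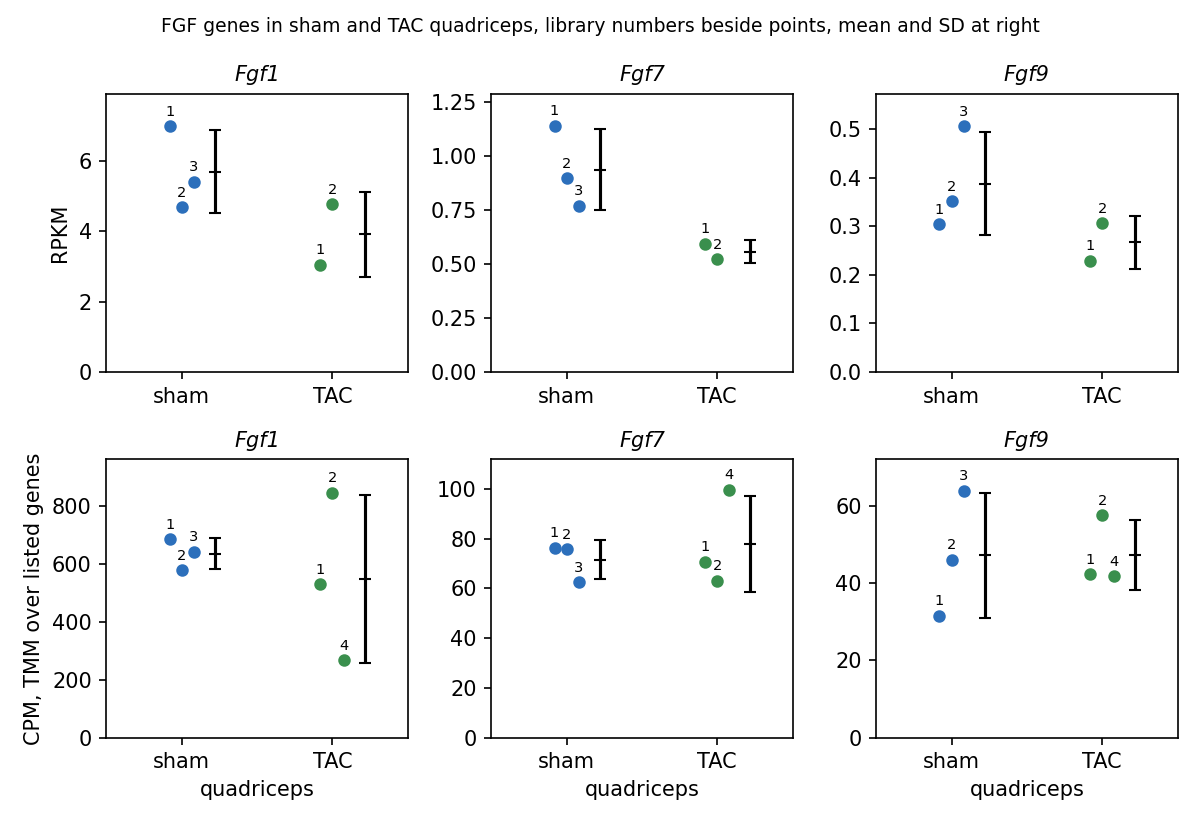
Fgf1, Fgf7 and Fgf9 in sham and TAC quadriceps libraries, as RPKM (top row, without TAC library 4) and as CPM of the listed genes with TMM factors (bottom row, all 6 libraries), with library numbers at the points and the mean and SD beside them. In the bottom row the groups overlapped for each gene, and TAC library 4 was the lowest of all for Fgf1 (267) and the highest for Fgf7 (99.8).

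Of the FGF pathway lists, only 4 heparan sulfate genes were measured after TAC, and none passed the test with TMM factors. The log2 fold changes were -0.39 for both sulfatases, Sulf1 (adjusted p = 0.243, edgeR) and Sulf2 (adjusted p = 0.333, edgeR), -0.06 for the glypican Gpc4 (adjusted p = 0.909, edgeR) and 0.25 for Hspg2 (adjusted p = 0.526, edgeR). On library totals without TAC library 4, Sulf1 passed at -1.02 (adjusted p = 0.0373, edgeR), Sulf2 did not at the same value (adjusted p = 0.0673, edgeR), and Hspg2 turned to -0.66. Under this scaling 30.7% of all tested genes were called lower. Receptors, co-receptors and intracellular targets were not analysed after TAC.

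Markers of other cell types differed after TAC. With TMM factors 4 of 5 listed fibroblast genes were lower, beside 11.9% of all tested genes, and Dcn was not (log2 fold change 0.17). On library totals the 5 genes summed to 293 to 483 CPM in sham and 131 to 180 CPM in TAC libraries 1 and 2. Dcn alone gave 180 to 280 CPM in sham and 168 and 112 CPM in TAC libraries 1 and 2, most of these sums. The macrophage gene C1qa was lower (1.88 to 2.31 against 0.658 to 0.878 CPM). Both listed endothelial genes were higher with TMM factors, beside 17.7% of all tested genes, while their summed CPM overlapped (27.5 to 35.3 against 31.4 to 32.3). The 3 listed adipocyte genes summed to 9.79 to 86.7 CPM in sham and 8.65 to 41.1 CPM in TAC quadriceps. The fibre gene Ckm ran from 10900 to 14200 CPM in sham and from 9100 to 12300 CPM in TAC. Their part in the FGF values was not tested.

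Across the 6 quadriceps libraries, the secreted-protein genes whose log2 CPM was most like that of Fgf1 were the basement membrane collagen Col4a2 (Pearson's r = 0.975) and Serpinb1c (0.969), out of 506 genes with a mean of at least 50 counts. For Fgf7 they were the plasma protein genes Alb (0.966) and Trf (0.92). These are descriptions over 6 libraries of 2 groups that share their scaling and differ in depth. Fgf9 had too few counts for this comparison.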

How the data were processed

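Single-end reads of 50 cycles from ScriptSeq v2 libraries were trimmed (Trim Galore), mapped to mm10 (STAR), assigned to RefSeq transcripts (Rsubread) and tested (edgeR) by the authors, who deposited raw counts and RPKM per transcript (versions not given in the sources used here). The deposited fold changes, F, p and FDR columns were not used. The TAC column numbered 4, a number the labels do not have, was used as a TAC quadriceps replicate only. Its RPKM column, 1 column of per-sample values, could not be matched to a single sample and was not used, so fits on RPKM or library totals leave it out (5 libraries). Library totals, from 23383452 to 48999600 counts, were recovered from counts, RPKM and length. Precision is limited by 3 libraries per group.

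Counts above 5 in at least 2 libraries were tested by edgeR 4.0.16 quasi-likelihood (R 4.3.3, TMM factors, Benjamini-Hochberg over all tested rows, adjusted p under 0.05). TMM factors in the TAC table rest on its listed genes. DESeq2 1.42.0, limma 3.58.1 on log2(RPKM + 0.5) or log2(RPKM + 0.1), library totals, count filters, left-out libraries and a replicate block were alternatives. Named were all members and receptors, the 4 called genes with the largest change of each other list and the 2 genes most like each member; the 4 heparan sulfate genes of the TAC table, and Myl7, were named after their values were seen. Members and lists were chosen with earlier results of these data known. Scripts were tested on simulated counts. Same-numbered libraries did not deviate together (correlations -0.097 to 0.023 for heart and quadriceps, 0.079 and -0.176 for sham and TAC).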

Additional observations from a re-analysis of the deposited data

How the results depend on the processing

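Over all genes tested, library totals gave 20 higher and 180 lower after TAC (5 libraries; TMM: 104 and 70 with all, 65 and 71 without TAC library 4) and 3241 and 15203 transcripts between the tissues (TMM: 7828 and 8354). The limma fits gave 16 to 17 higher and 198 to 199 lower after TAC and 3201 to 3218 and 15319 to 15365 between the tissues, and the study's rule 1699 and 2097 between the tissues. Leaving out single libraries gave 25 to 113 higher and 35 to 102 lower genes after TAC. Called FGFs after TAC stayed at 0 under all 16 alternatives, and called pathway genes went from 0 to 1 with library totals and with each limma fit. Under the study's rule between the tissues, FGFs higher in quadriceps went from 1 to 0, FGFs lower from 5 to 3 and called pathway genes from 29 to 8. With single libraries left out these ran from 1 to 2, 5 to 5 and 26 to 29. Fgf6 passed at 2.13 without heart library 2.

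Signs of uncalled log2 fold changes turned as follows. With single libraries left out, Fgf1 after TAC ran from -0.67 to 0.01, Fgf7 from -0.19 to 0.25 and Fgf9 from -0.25 to 0.29. Between the tissues Fgf2 ran from -0.03 to 0.62 and Fgf10 from -0.19 to 0.56. With library totals and the limma fits (pseudocounts 0.5 and 0.1), Fgf7 after TAC was -0.75, -0.43 and -0.64, and Fgf9 was -0.52, -0.20 and -0.39 (5 libraries each), and Fgf9 was -0.03 with at least 10 counts required. In the same 3 fits between the tissues Fgf2 was -0.41, -0.23 and -0.35 and Fgf10 was -0.64, -0.07 and -0.24. From TMM factors to library totals the median shift over all tested rows was -0.747 between the tissues and -0.558 after TAC (5 libraries). The cause of the turned signs was not tested.

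The replicate block could be fitted for libraries 1 and 2 of sham and TAC and gave 56 higher and 62 lower genes, against 49 and 39 without it, a fit chosen after seeing the data. With and without this block Fgf1 was 0.09 and 0.12, and Fgf7 -0.19 and -0.18. The block between the tissues left 7541 higher and 8175 lower transcripts and changed no call of a member. Low counts limit Fgf2, Fgf6 and Fgf10, whose differences were not resolved at this depth.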
